A study of Mus musculus with 15 samples.

Results

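Ciliary neurotrophic factor (Cntf), 5 receptor subunits that carry its signal or that of its close relatives (Cntfr, Lifr, Il6st, Il6ra and Osmr) and 2 Janus kinases (Jak1 and Jak2) were followed by RNA sequencing of the optic nerve in adult C57BL/6J mice. They were taken by gene name, 8 of the 14237 genes in the deposited table, and all 8 passed the filter on low counts, among 14194 genes that did. Every eye had received AAV2, an adeno-associated virus of serotype 2, into the vitreous. In the crush AAV-CNTF group the virus carried a secretable form of CNTF and the optic nerve was crushed. In the crush AAV-null group the virus carried no transgene and the nerve was crushed in the same way. In the sham AAV-null group the same empty virus was given and the nerve was exposed but not crushed. Crush followed injection by 2 weeks and the nerves were collected 7 days after crush, while the labels give no times for sham. Each group had 5 biological replicates, numbered 2 to 6. The sources used here give neither the promoter of the vector nor the species of its CNTF, so whether reads of the vector's own transcript count toward Cntf cannot be told.

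CNTF is a cytokine of the interleukin-6 family that lacks a classical secretion signal, and in the optic nerve astrocytes are its known source. It binds Cntfr, a subunit tethered to the membrane by a lipid anchor, and the complex then recruits Lifr and Il6st (gp130), which span the membrane. Janus kinases bound to Lifr and Il6st phosphorylate STAT factors, STAT3 above all, and the inhibitor Socs3 is induced by STAT3 and shuts the receptor down. Il6ra is the subunit that binds interleukin-6, and Osmr pairs with Il6st to receive oncostatin M.

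Expected counts summed to 23775487 to 29558293 per library in crush AAV-CNTF nerves, 19918858 to 29138927 in crush AAV-null nerves and 19856688 to 26411929 in sham AAV-null nerves. The crush AAV-null replicate 6 library stood apart on the second principal component, at -99.7 against -8.98 to 24 in the other 14 libraries. Without it, 7 of the 8 genes described below were called in crush AAV-null against sham AAV-null (all but Osmr) instead of 8, and 0 in crush AAV-CNTF against crush AAV-null, as with it. Over all genes, leaving it out gave 3607 calls instead of 3912 in crush AAV-null against sham AAV-null. In crush AAV-CNTF against crush AAV-null it gave 4 calls over all genes instead of 8. All 10 astrocyte markers and all 10 mature oligodendrocyte markers were measured, the glia that an optic nerve is known to hold. The summed astrocyte markers stood at 5443 to 6766 CPM (a count divided by sequencing depth, with edgeR's TMM normalization) in crush AAV-CNTF nerves, 4964 to 6613 CPM in crush AAV-null nerves and 8238 to 9148 CPM in sham AAV-null nerves. Mature oligodendrocyte markers summed to 17740 to 25490 CPM in crush AAV-CNTF nerves, 21590 to 30160 CPM in crush AAV-null nerves and 51240 to 65070 CPM in sham AAV-null nerves. Microglia and macrophage markers summed to 4729 to 7442 CPM with AAV-CNTF and crush, 6571 to 10210 CPM with AAV-null and crush, and 1206 to 1751 CPM with AAV-null and sham. Fibroblast and meningeal markers summed to 4190 to 11260 CPM in crush AAV-CNTF nerves, 4724 to 7878 CPM in crush AAV-null nerves and 1861 to 5687 CPM in sham AAV-null nerves. In crush AAV-null against sham AAV-null, edgeR called 8 of 10 astrocyte and 10 of 10 oligodendrocyte markers as lower, 11 of 12 microglia and macrophage markers as higher, and 4 of 8 fibroblast and meningeal markers as higher and 1 as lower. Whole nerves were sequenced, so fewer cells of a type and less RNA per cell cannot be told apart. The part of these markers in the results below was not tested.

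After crush, the ligand and the 3 subunits of its own receptor had lower RNA levels than in sham nerves, while Il6ra, Osmr and Jak1 had higher ones. With AAV-null in both groups, 3 of the 8 genes passed edgeR's quasi-likelihood test as higher after crush (Il6ra, Osmr and Jak1) and 5 as lower (Cntf, Cntfr, Lifr, Il6st and Jak2), at an adjusted p under 0.05. The test was adjusted by Benjamini-Hochberg over all 14194 genes, of which 27.6% passed it in this comparison, 14.7% as higher and 12.9% as lower. The median log2 fold change was -0.48 over the 8 genes and 0.00484 over all genes tested. The CPM values of crush AAV-null and sham AAV-null libraries did not overlap for 7 of the 8 genes, all but Osmr, against 20.6% of all genes. Of these 7, Il6ra and Jak1 lay higher after crush and Cntf, Cntfr, Lifr, Il6st and Jak2 lower, against 10.5% and 10.1% of all genes in those directions.

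**Figure D1:**
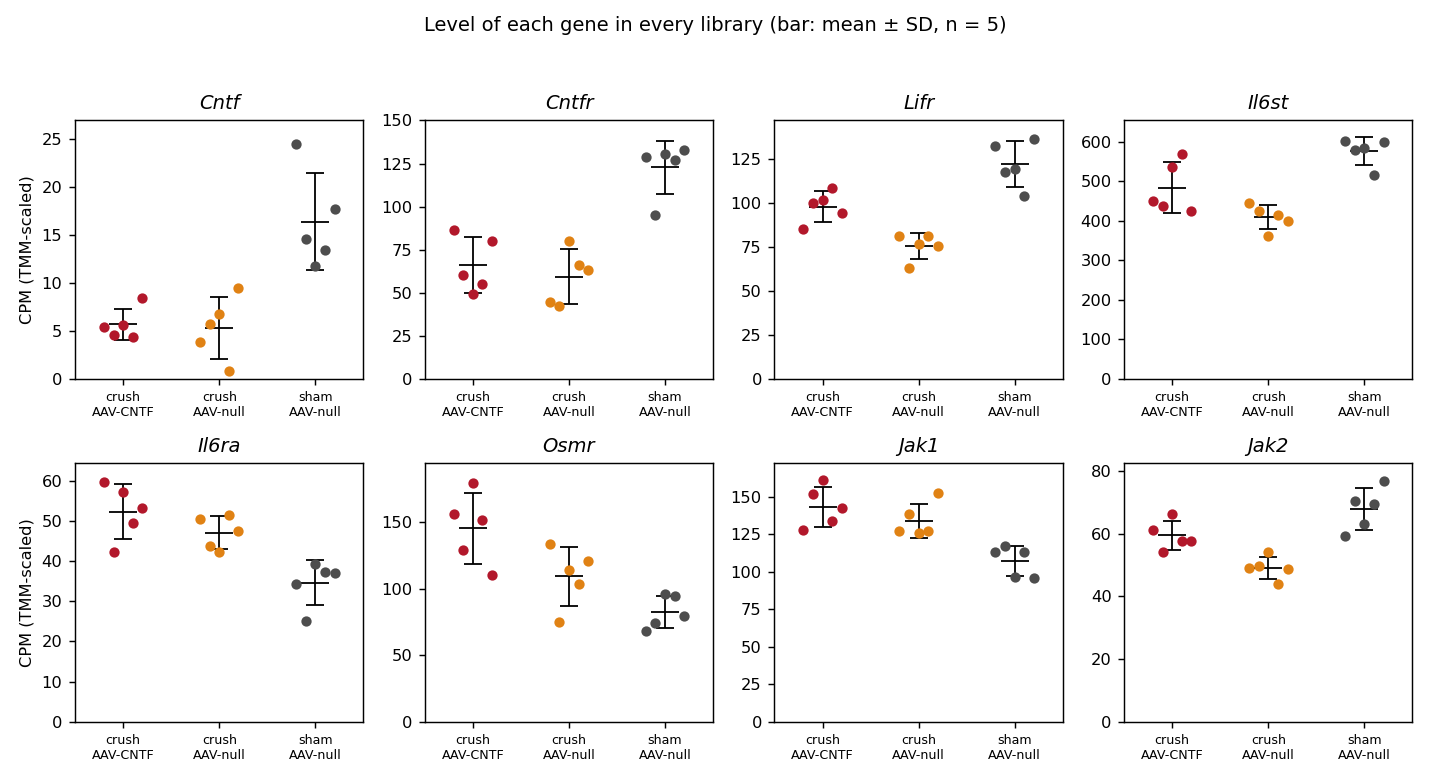
Each panel plots the level of a gene in CPM on TMM-scaled library sizes, from 0, with a point per library for crush AAV-CNTF (red), crush AAV-null (orange) and sham AAV-null (grey) nerves, and a bar for the mean ± SD (n = 5). Cntf, Cntfr, Lifr, Il6st and Jak2 stand highest in sham nerves, and Il6ra, Osmr and Jak1 stand lowest there.

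Cntf lies at chr19:12763660-12765632 on the minus strand of mm10 and has 1 annotated transcript in GENCODE M21. The 250 bases before its start are shown because Cntf had the largest fold change of the 8 genes. They also differ in base composition from the bases before the first listed start of each of the other 7 genes. They run from chr19:12765633-12765882 on the minus strand, are given 5′ to 3′ from RefSeq on mm10, and carry CpG pairs in capitals.
Cntf: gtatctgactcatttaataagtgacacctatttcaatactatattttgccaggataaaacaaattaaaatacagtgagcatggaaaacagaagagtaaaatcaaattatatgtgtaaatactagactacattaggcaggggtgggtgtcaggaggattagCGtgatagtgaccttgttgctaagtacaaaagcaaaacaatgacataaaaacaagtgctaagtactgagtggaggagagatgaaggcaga
This stretch holds 1 CpG pair and has a GC content of 35.6%, and 7.87% of 32817 such windows over all genes hold fewer CpG pairs (median 6). The other 7 genes hold 18 to 43 CpG pairs before the first listed start of each. CpG pairs before the further listed starts of Cntfr and Lifr were not counted. The GC content of the 300 bases around those starts was as low as 51.3% for Cntfr and was 53.3% for Lifr, against 36.3% around the Cntf start.

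Cntf stood at 5.33, 4.50, 5.57, 4.37 and 8.42 CPM in crush AAV-CNTF nerves (replicates 2 to 6), at 3.81, 5.69, 6.75, 0.767 and 9.41 CPM in crush AAV-null nerves, and at 24.5, 14.5, 11.7, 13.4 and 17.7 CPM in sham AAV-null nerves. Every crushed nerve lay below every sham nerve, whichever virus it had received, and the crushed groups overlapped. The lowest library, crush AAV-null replicate 5, rested on 17.15 expected counts, against 77.77 to 278 in the other 4 of its group. Cntf averaged 5.29 ± 3.24 CPM in crush AAV-null nerves and 16.4 ± 5.04 CPM in sham AAV-null nerves (SD, n = 5 each), a log2 fold change of -1.63 ± 0.42 (SE, edgeR adjusted p = 0.00611), or 3.09-fold lower. Without that library the fold change stayed past the threshold, and over all 22 alternative settings it lay between -2.11 and -1.35.

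A readthrough transcript of the neighbouring gene Zfp91, which encodes a zinc finger protein, runs into Cntf and covers 847 of its 1073 exonic bases, or 78.9%. Reads from that stretch can be shared between the genes, and the Cntf counts of several libraries were not whole numbers. In each of those libraries the Zfp91 count was not whole either, and the counts of both genes add up to a whole number. Crush AAV-null replicate 5 is among them, with 17.15 for Cntf and 2883.85 for Zfp91. The Cntf level is uncertain to the extent of such sharing. Zfp91 averaged 136.5 ± 11.5 CPM in crush AAV-CNTF nerves, 132 ± 9.17 CPM in crush AAV-null nerves and 192 ± 12.2 CPM in sham AAV-null nerves (SD, n = 5 each). It was also lower after crush, by a log2 fold change of -0.54 ± 0.09 (SE, edgeR adjusted p = 6.26e-05). In FPKM, which scales fragments by transcript length and library depth, Cntf stood at 0.253 times the level of Zfp91 in the mean of crush AAV-CNTF nerves, 0.244 times in crush AAV-null nerves and 0.525 times in sham AAV-null nerves.

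Cntfr, the subunit that binds CNTF (chr4:41657498-41697089, minus strand), stood at 86.5, 60.4, 49.2, 54.8 and 80.1 CPM in crush AAV-CNTF nerves, at 44.5, 42.3, 80.1, 65.9 and 63.3 CPM in crush AAV-null nerves, and at 129, 95.2, 130.3, 127 and 133 CPM in sham AAV-null nerves. All 10 crushed nerves lay below all 5 sham nerves, and the crushed groups overlapped over most of their ranges. Against sham, crush with AAV-null gave a log2 fold change of -1.05 ± 0.18 (SE, edgeR adjusted p = 0.000115), or 2.07-fold lower. This direction and call held in all 22 alternative settings, with values of -1.18 to -0.88.

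Lifr and Osmr are related signalling subunits that lie on the same chromosome on opposite strands, Lifr at chr15:7090614-7197489 (plus) and Osmr at chr15:6813577-6874969 (minus). They are shown side by side because their levels moved in opposite directions after crush. The 250 bases before the start of each, from chr15:7129322-7129571 for a Lifr start and chr15:6874314-6874563 for an Osmr start (each of these starts lies within the annotated span of its gene), are given 5′ to 3′ on the gene's own strand from RefSeq on mm10, again with CpG pairs in capitals.
Lifr: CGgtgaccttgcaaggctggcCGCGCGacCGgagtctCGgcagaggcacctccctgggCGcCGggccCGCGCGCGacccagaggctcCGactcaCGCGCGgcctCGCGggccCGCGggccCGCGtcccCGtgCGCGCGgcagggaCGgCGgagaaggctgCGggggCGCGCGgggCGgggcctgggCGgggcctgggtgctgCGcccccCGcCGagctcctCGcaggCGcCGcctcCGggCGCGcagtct
Osmr: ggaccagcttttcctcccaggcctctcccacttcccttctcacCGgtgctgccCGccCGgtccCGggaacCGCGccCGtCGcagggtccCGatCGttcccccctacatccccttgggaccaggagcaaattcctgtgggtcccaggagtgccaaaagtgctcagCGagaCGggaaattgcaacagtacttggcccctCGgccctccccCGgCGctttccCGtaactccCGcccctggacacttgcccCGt
The Lifr stretch holds 43 CpG pairs, and 99.3% of the windows over all genes hold fewer. It lies before the first of 2 listed Lifr starts, and CpG pairs before the other were not counted. The Osmr stretch holds 18, and 78.3% of windows hold fewer. The letters TTCNNNGAA, the core of a STAT binding motif and its own reverse complement, were searched in 14 windows of 300 bases around the annotated starts of the 8 genes. None of these 14 windows held them, against 8.29% of all 32817 windows. Of the 14 windows, 6 belong to Cntfr and some of those overlap, so the 14 are not independent. No match says only that these letters are not in this window.

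Lifr stood at 85.0, 99.7, 101.5, 108 and 94.0 CPM in crush AAV-CNTF nerves, at 81.0, 63.1, 76.2, 80.8 and 75.1 CPM in crush AAV-null nerves, and at 132, 117, 119, 104 and 136 CPM in sham AAV-null nerves. The crush AAV-null libraries lay below both other groups without overlap, and the crush AAV-CNTF libraries lay between, with the highest of them above the lowest sham library. Crush AAV-null against sham AAV-null gave a log2 fold change of -0.70 ± 0.10 (SE, edgeR adjusted p = 2.48e-05), or 1.62-fold lower, and the call held in all 22 alternatives.

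Il6st, the subunit shared by the whole cytokine family (chr13:112464070-112510086, plus strand), stood at 450.2, 437, 536.5, 568 and 424 CPM in crush AAV-CNTF nerves, at 445, 423.5, 362, 415 and 399 CPM in crush AAV-null nerves, and at 603, 579, 583, 516 and 599.5 CPM in sham AAV-null nerves. The crush AAV-null libraries again lay below every sham library. The log2 fold change of crush AAV-null against sham AAV-null was -0.49 ± 0.09 (SE, edgeR adjusted p = 0.000425). Tested on log2(FPKM + 1) with limma it was -0.29 with an adjusted p of 0.0552, which ended the call.

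Il6ra (chr3:89864059-89913196, minus strand) stood at 59.5, 42.2, 57.1, 49.4 and 53.1 CPM in crush AAV-CNTF nerves, at 50.5, 43.7, 42.1, 51.3 and 47.5 CPM in crush AAV-null nerves, and at 34.3, 25.1, 39.1, 37.3 and 37.1 CPM in sham AAV-null nerves. Every crushed nerve lay above every sham nerve. The log2 fold change of crush AAV-null against sham AAV-null was 0.44 ± 0.13 (SE, edgeR adjusted p = 0.0171), and without sham AAV-null replicate 3, the lowest library, it was 0.35 with an adjusted p of 0.0511.

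Osmr stood at 156, 129, 179, 152 and 110.1 CPM in crush AAV-CNTF nerves, at 134, 75.1, 114, 103 and 121 CPM in crush AAV-null nerves, and at 67.9, 74.2, 95.7, 94.5 and 79.8 CPM in sham AAV-null nerves. Crush AAV-CNTF libraries all lay above the sham libraries, and crush AAV-null replicate 3 lay among the sham libraries. The log2 fold change of crush AAV-null against sham AAV-null was 0.41 ± 0.15 (SE, edgeR adjusted p = 0.0468), close to the threshold. It lost the call in 10 of 22 alternatives, among them limma-voom (adjusted p = 0.0518), leaving out crush AAV-null replicates 2, 4, 5 or 6 (0.131, 0.082, 0.061 and 0.101) and leaving out sham AAV-null replicates 2, 3 or 6 (0.123, 0.104 and 0.0872).

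Jak1, a kinase bound to Il6st (chr4:101152367-101265282, minus strand), stood at 128, 152, 161, 134 and 143 CPM in crush AAV-CNTF nerves, at 127, 138, 126, 127 and 152.5 CPM in crush AAV-null nerves, and at 113, 117, 96.8, 113.5 and 95.6 CPM in sham AAV-null nerves. All crushed nerves lay above all sham nerves. Jak2, which also serves many other cytokine receptors (chr19:29251828-29313080, plus strand), stood at 61.3, 54.3, 66.2, 57.7 and 57.8 CPM in crush AAV-CNTF nerves, at 49.1, 49.7, 54.1, 43.9 and 48.8 CPM in crush AAV-null nerves, and at 59.4, 70.6, 63.1, 69.4 and 77.0 CPM in sham AAV-null nerves. For Jak2 the crush AAV-null libraries lay below both other groups, although the highest of them nearly reached the lowest crush AAV-CNTF library.

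The kinases thus moved in opposite directions after crush with AAV-null, at a log2 fold change of 0.32 ± 0.10 for Jak1 and -0.47 ± 0.10 for Jak2 (SE, edgeR adjusted p = 0.0143 and 0.00179). Both directions held in all 22 alternatives. On the FPKM scale both calls were lost, with adjusted p of 0.0688 for Jak1 and 0.151 for Jak2 on log2(FPKM + 1).

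On log2(FPKM + 0.1) the median gene stood 0.18 higher in crush AAV-null than in sham AAV-null nerves. Of the genes called, 73.9% on log2(FPKM + 0.1) and 73.1% on log2(FPKM + 1) were higher, against 53.3% with edgeR. The limma test on log2(FPKM + 1) called 5 of the 8 genes, 2 as higher (Il6ra and Osmr) and 3 as lower (Cntf, Cntfr and Lifr). Taken relative to the median gene, the differences of log2(FPKM + 0.1) were -1.94 for Cntf, -1.08 for Cntfr, -0.69 for Lifr, -0.48 for Il6st, 0.43 for Il6ra, 0.43 for Osmr, 0.24 for Jak1 and -0.47 for Jak2, with the same directions as in CPM.

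**Figure D2:**
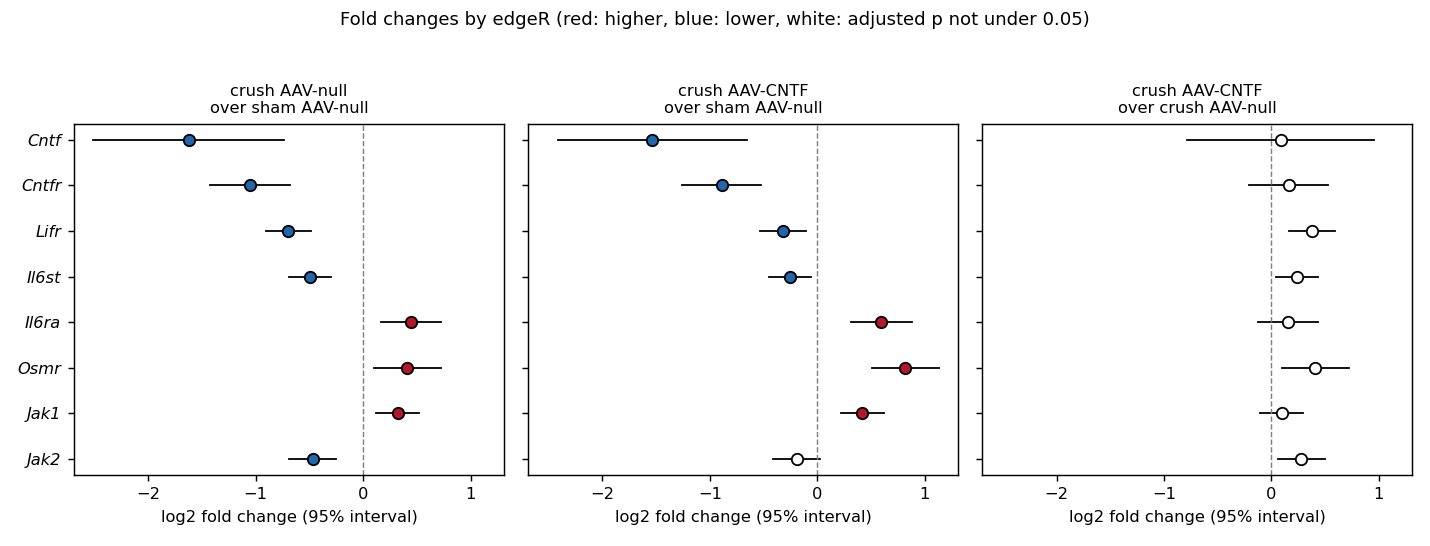
Log2 fold changes of the 8 genes by edgeR with 95% intervals, for crush AAV-null over sham AAV-null, crush AAV-CNTF over sham AAV-null and crush AAV-CNTF over crush AAV-null nerves. Filled points passed the adjusted p of 0.05 (red higher, blue lower), and all 8 points of the crush AAV-CNTF over crush AAV-null panel are open and lie above 0.

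Between crushed nerves, AAV-CNTF against AAV-null, none of the 8 genes passed the edgeR test, and all 8 estimates lay above 0. This comparison shares the crush AAV-null libraries with crush AAV-null against sham AAV-null. The same test called 0.0564% of all genes, which is 8 genes, 0.0423% as higher and 0.0141% as lower. At an unadjusted p under 0.05 there were 1091 of 14194 genes, and 4 of the 8, Lifr, Osmr, Jak2 and Il6st. DESeq2 and limma-voom also called 0 of the 8, each with 4 at an unadjusted p under 0.05. The median log2 fold change was 0.20 over the 8 genes and -0.00348 over all genes tested.

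No difference in the level counted for Cntf was detectable between the viruses, and the error was wide. Cntf averaged 5.64 ± 1.64 CPM in crush AAV-CNTF nerves and 5.29 ± 3.24 CPM in crush AAV-null nerves (SD, n = 5 each), a log2 fold change of 0.09 ± 0.42 (SE) with a 95% interval of -0.78 to 0.96. That interval spans fold changes of 0.582 to 1.94. The estimate changed sign when crush AAV-CNTF replicate 6 (-0.10), crush AAV-null replicate 2 (-0.008) or crush AAV-null replicate 5 (-0.19) was left out.

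Among the signalling subunits, Lifr averaged 97.7 ± 8.78 CPM in crush AAV-CNTF nerves and 75.3 ± 7.29 CPM in crush AAV-null nerves (SD, n = 5 each), a log2 fold change of 0.38 ± 0.10 (SE, unadjusted p = 0.00141 and adjusted p = 0.202 by edgeR). Its 5 crush AAV-CNTF libraries all lay above its 5 crush AAV-null libraries. Jak2 likewise showed no overlap, with 59.5 ± 4.54 CPM in crush AAV-CNTF nerves and 49.1 ± 3.62 CPM in crush AAV-null nerves, a log2 fold change of 0.28 ± 0.10 (adjusted p = 0.477 by edgeR). In CPM these were 2 of the 8 genes without overlap between the crushed groups, both higher with AAV-CNTF, against 1.55% of all genes without overlap and 0.838% higher without overlap. In FPKM the crushed groups overlapped for both genes. Lifr ran from 11.99 to 16.37 FPKM with AAV-CNTF and from 10.49 to 12.77 FPKM with AAV-null. Jak2 ran from 11.79 to 14.3 FPKM with AAV-CNTF and from 9.15 to 11.89 FPKM with AAV-null. Osmr averaged 145 ± 26.6 CPM with AAV-CNTF and 109 ± 22.1 CPM with AAV-null (log2 fold change 0.41 ± 0.15, edgeR adjusted p = 0.461). For Il6st the means were 483 ± 64.8 CPM with AAV-CNTF and 409 ± 30.9 CPM with AAV-null (0.24 ± 0.09, edgeR adjusted p = 0.507).

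The other 3 genes lay closer to 0. The log2 fold changes were 0.16 ± 0.18 for Cntfr, 0.15 ± 0.13 for Il6ra and 0.10 ± 0.10 for Jak1, with 95% intervals of -0.21 to 0.53, -0.13 to 0.43 and -0.10 to 0.30. Over the 22 alternatives no gene of the 8 was called, and the adjusted p of Lifr ran from 0.0832 to 0.612, with 0.306 without crush AAV-null replicate 6. Markers of T and NK cells, of which 6 of 8 were measured, summed to 19.5 to 63.8 CPM in crush AAV-CNTF nerves and 5.87 to 15.5 CPM in crush AAV-null nerves. None of these markers passed the edgeR test, 5 of the 6 were higher at an unadjusted p under 0.05, and their part in the results was not tested.

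Crush with AAV-CNTF was also set against sham with AAV-null, a comparison that shares the sham libraries with crush AAV-null against sham AAV-null. It called 7 of the 8 genes, 3 as higher (Il6ra, Osmr and Jak1) and 4 as lower (Cntf, Cntfr, Lifr and Il6st), where 31.3% of all genes were called, 17% as higher and 14.3% as lower. The CPM of the groups did not overlap for Il6ra, Osmr and Jak1 (higher) and for Cntf and Cntfr (lower), 5 of the 8 genes, against 23% of all genes, 11.9% as higher and 11.2% as lower. Of the genes called on the log2(FPKM + 1) scale 71.9% were higher, against 54.2% with edgeR.

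Side by side with the crush AAV-null values above, the log2 fold changes of crush AAV-CNTF against sham AAV-null were -1.54 ± 0.42 for Cntf, -0.89 ± 0.18 for Cntfr, -0.32 ± 0.10 for Lifr and -0.25 ± 0.09 for Il6st (SE, edgeR adjusted p = 0.008, 0.000521, 0.0203 and 0.0464). They were 0.60 ± 0.13 for Il6ra, 0.82 ± 0.15 for Osmr and 0.42 ± 0.10 for Jak1 (adjusted p = 0.00173, 0.000236 and 0.00182 by edgeR). Jak2, at -0.19 ± 0.10, did not pass the test (edgeR adjusted p = 0.181, 95% interval -0.41 to 0.03). Osmr was thus 1.76-fold higher in crush AAV-CNTF than in sham AAV-null nerves.

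3 of these 7 calls did not hold in every alternative. Cntf lost its call on log2(FPKM + 0.1), at a log2 difference of -1.34 with a limma adjusted p of 0.0608. Lifr lost its call on both FPKM scales, where its log2 difference was -0.16 on log2(FPKM + 0.1) and -0.15 on log2(FPKM + 1) (limma adjusted p = 0.457 and 0.467). Lifr also lost its call without crush AAV-CNTF replicate 2 (adjusted p = 0.0573), sham AAV-null replicate 2 (0.0521) or sham AAV-null replicate 6 (0.0615). Il6st lost its call in 11 of 22 alternatives, with adjusted p of 0.00954 to 0.459 over all of them.

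Levels of different genes were compared in FPKM, which divides by transcript length. Il6st had the highest level of the 8 genes in every group, with mean FPKM of 86.3 in crush AAV-CNTF nerves, 75.9 in crush AAV-null nerves and 93.3 in sham AAV-null nerves. In sham AAV-null nerves Cntfr followed at 66.4 and Jak1 at 33.5, each of these steps without overlap between libraries. Cntf at 17.4, Osmr at 16.5, Lifr at 16.4 and Jak2 at 13.0 came next and overlapped with their neighbours, and Il6ra at 7.26 lay below all of them without overlap with Jak2.

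In crushed nerves Jak1 stood second, at 48.9 with AAV-CNTF and 44.5 with AAV-null, and overlapped with Cntfr, at 41.9 with AAV-CNTF and 36.5 with AAV-null. Osmr followed at 31.5 with AAV-CNTF and 25.02 with AAV-null. In both groups it lay without overlap above Lifr, which stood at 14.7 with AAV-CNTF and 11.4 with AAV-null. Jak2 and Il6ra overlapped with each other, Jak2 at 12.8 and Il6ra at 12.6 with AAV-CNTF, and Jak2 at 10.6 and Il6ra at 11.1 with AAV-null. Cntf was last, at 6.76 FPKM with AAV-CNTF, without overlap with Il6ra, and at 6.48 FPKM with AAV-null, where it overlapped with Jak2. The FPKM of Jak1 is the least certain of these, since the transcript length implied by its count and FPKM varied from 0.787 to 1.26 times its mean between libraries.

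**Figure D3:**
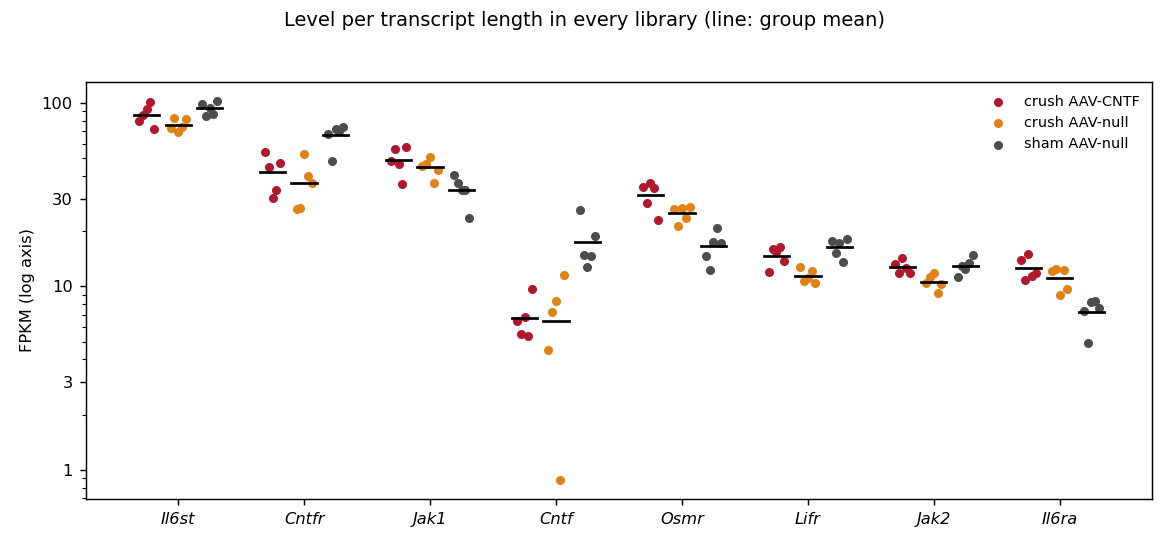
FPKM of the 8 genes on a log axis, with a point per library and a line at the mean of each group (crush AAV-CNTF red, crush AAV-null orange, sham AAV-null grey; n = 5). Il6st is highest in all 3 groups, and Cntf has the lowest mean in both crushed groups, with crush AAV-null replicate 5 at 0.88 FPKM.

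Within a library, the balance between subunits differed by group, given here as a description without a test. Osmr had 2.91, 1.78, 2.38, 2.10 and 1.67 times the FPKM of Lifr in crush AAV-CNTF nerves, 2.08, 2.00, 2.40, 1.94 and 2.59 times in crush AAV-null nerves, and 0.83, 0.809, 1.01, 1.53 and 0.953 times in sham AAV-null nerves. Every crushed nerve had a higher Osmr to Lifr ratio than every sham nerve. Il6ra had 0.317 ± 0.108 times the FPKM of Cntfr in crush AAV-CNTF nerves, 0.334 ± 0.128 times in crush AAV-null nerves and 0.109 ± 0.00667 times in sham AAV-null nerves (SD, n = 5 each), again without overlap between crushed and sham nerves.

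The ratio of Cntfr to Il6st averaged 0.502 ± 0.169 in crush AAV-CNTF nerves, 0.488 ± 0.174 in crush AAV-null nerves and 0.711 ± 0.0938 in sham AAV-null nerves, and the groups overlapped. The ratio of Lifr to Il6st averaged 0.171 ± 0.0177 in crush AAV-CNTF nerves, 0.152 ± 0.0214 in crush AAV-null nerves and 0.175 ± 0.0109 in sham AAV-null nerves. It ran from 0.150 to 0.192 in crush AAV-CNTF nerves, from 0.129 to 0.175 in crush AAV-null nerves and from 0.156 to 0.183 in sham AAV-null nerves.

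**Figure D4:**
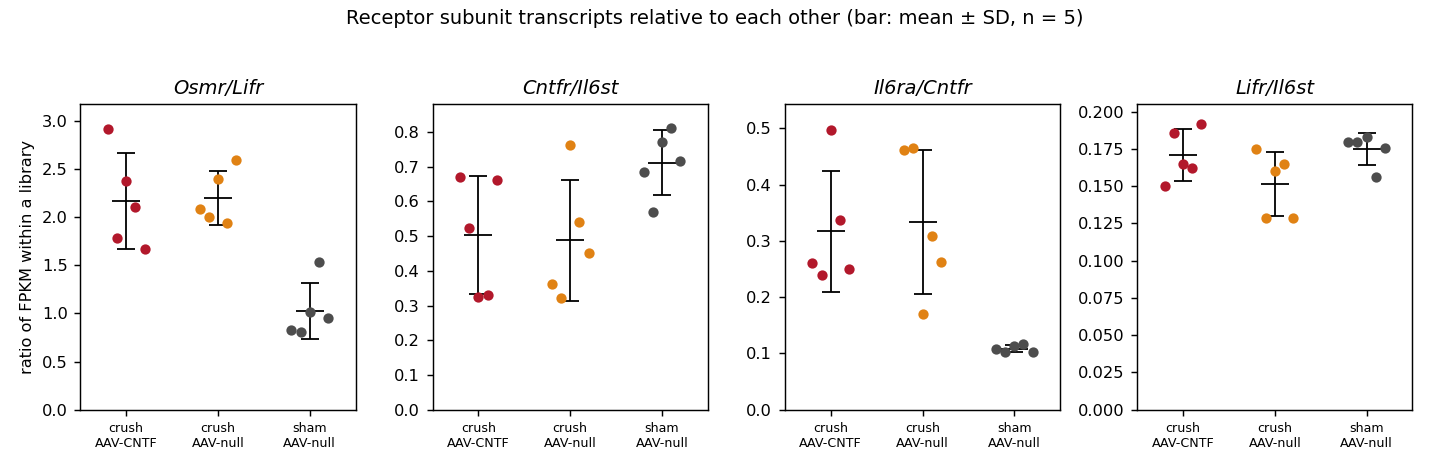
Ratios of FPKM between receptor subunits within each library, with a point per library and a bar for the mean ± SD (n = 5) in crush AAV-CNTF, crush AAV-null and sham AAV-null nerves. The Osmr to Lifr and Il6ra to Cntfr ratios of all crushed nerves lie above those of all sham nerves, and the Lifr to Il6st ratios overlap.

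Of the rest of the pathway, a list of 41 genes was considered and 37 were measured. Crush AAV-null against sham AAV-null called 9 of the 37 as higher and 5 as lower by edgeR, where 14.7% and 12.9% of all genes were called in those directions. The median log2 fold change was 0.17 over the list and 0.00484 over all genes tested. Other ligands of the family were of low level. Clcf1, a further ligand of the Cntfr complex, averaged 11.4 ± 4.202 CPM in crush AAV-CNTF nerves, 10.7 ± 4.30 CPM in crush AAV-null nerves and 11.3 ± 5.19 CPM in sham AAV-null nerves (SD, n = 5 each).

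Lif, which signals through Lifr and Il6st, averaged 6.91 ± 1.46 CPM in crush AAV-CNTF nerves, 4.59 ± 1.38 CPM in crush AAV-null nerves and 1.57 ± 1.92 CPM in sham AAV-null nerves. It passed the test against sham with AAV-CNTF (log2 fold change 2.13 ± 0.66, edgeR adjusted p = 0.0166) and not with AAV-null (1.54 ± 0.65, edgeR adjusted p = 0.0845). Without sham AAV-null replicate 4, which at 4.89 CPM lay among the crushed nerves, crush AAV-null against sham AAV-null passed too, at a log2 fold change of 2.62 with an adjusted p of 0.00261. With all libraries it also passed by DESeq2 (adjusted p = 0.0413), by limma-voom (0.0209), with the replicate block (0.0320) and by limma on log2(FPKM + 0.1) and log2(FPKM + 1) (0.0161 and 0.0349). Osm, the ligand of Osmr, averaged 2.62 ± 1.72 CPM in crush AAV-CNTF nerves, 2.84 ± 1.13 CPM in crush AAV-null nerves and 0.461 ± 0.580 CPM in sham AAV-null nerves, where 2 libraries had no count. Its log2 fold change of 2.61 ± 0.98 in crush AAV-null against sham AAV-null did not pass the edgeR test (adjusted p = 0.0535), and it passed with DESeq2 (adjusted p = 0.00999). Ebi3, a subunit of interleukin-27, averaged 7.25 ± 2.87 CPM in crush AAV-CNTF nerves, 5.17 ± 2.79 CPM in crush AAV-null nerves and 4.33 ± 2.30 CPM in sham AAV-null nerves. Ctf1, or cardiotrophin-1, a further ligand of Lifr and Il6st, averaged 1.67 ± 0.706 CPM in crush AAV-CNTF nerves, 1.88 ± 1.13 CPM in crush AAV-null nerves and 2.67 ± 1.14 CPM in sham AAV-null nerves. Clcf1, Ebi3 and Ctf1 passed in none of the 3 comparisons.

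Among inhibitors, Socs3 stood at 85.8, 106, 87.5, 88.8 and 76.4 CPM in crush AAV-CNTF nerves, at 49.3, 47.7, 35.3, 53.2 and 76.05 CPM in crush AAV-null nerves, and at 15.5, 24.0, 20.9, 21.9 and 24.6 CPM in sham AAV-null nerves. The 3 groups did not overlap in CPM, although crush AAV-null replicate 6 came within a fraction of a CPM of the lowest crush AAV-CNTF library. In FPKM that replicate stood at 33.29, above the lowest crush AAV-CNTF library at 32.13. Crush AAV-null against sham AAV-null gave a log2 fold change of 1.29 ± 0.17 (SE, edgeR adjusted p = 7.30e-06). Crush AAV-CNTF against crush AAV-null gave 0.76 ± 0.17, which did not pass (edgeR adjusted p = 0.0788). It passed without crush AAV-null replicate 6 (0.94, adjusted p = 0.0306), with DESeq2 (0.76, adjusted p = 0.00978) and with limma-voom (0.88, adjusted p = 0.0182).

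Besides Socs3, the list genes of smallest p called as higher in crush AAV-null against sham AAV-null were Ptpn6, Jak3 and Ptpn1. Further list genes called as higher had larger p. Ptpn6, a phosphatase of blood cell lineages, stood at 1.72 ± 0.22 and Jak3, the Janus kinase of lymphoid cytokine receptors, at 1.01 ± 0.19. Ptpn1, a phosphatase that acts on Janus kinases, stood at 0.71 ± 0.14 (log2 fold change ± SE, edgeR adjusted p = 6.28e-06, 0.000294 and 0.000738 in that order). On the lower side the smallest p belonged to the docking adaptor Gab1 at -0.78 ± 0.10, the phosphatase Ptpn11 at -0.49 ± 0.09, Socs7 at -0.41 ± 0.12 and Pias2, an inhibitor of STAT factors, at -0.44 ± 0.15 (edgeR adjusted p = 4.11e-06, 0.000153, 0.0121 and 0.0309). Ptpn1 lost its call on log2(FPKM + 0.1) and log2(FPKM + 1), at 1.13 and 1.09 (limma adjusted p = 0.0611 and 0.0583). Socs7 stood at 0.08 on log2(FPKM + 1), the other direction, without a call. Pias2 lost its call in 8 of 22 alternatives. Microglia and macrophage markers, 11 of 12 of them called as higher in the same comparison, moved with Ptpn6 and Jak3, and their part was not tested.

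Crush AAV-CNTF against crush AAV-null called 0 of the 37 list genes by edgeR, where 0.0564% of all genes were called. At an unadjusted p under 0.05 there were 6 of the 37, all with estimates above 0, Socs3 and Stat3 among them, and 1091 of all 14194 genes. DESeq2 and limma-voom each called 1, Socs3, with 5 and 6 at an unadjusted p under 0.05. The median was 0.15. Stat3, the main STAT factor of CNTF, stood at 217.5, 207, 249, 214 and 207 CPM in crush AAV-CNTF nerves and at 178, 160.3, 183.5, 199 and 189.8 CPM in crush AAV-null nerves. These groups did not overlap in CPM (log2 fold change 0.26 ± 0.08, edgeR adjusted p = 0.316). In FPKM they did, at 63.2 to 115.4 with AAV-CNTF and 45.9 to 85.3 with AAV-null. Sham AAV-null nerves averaged 192.6 ± 6.70 CPM. Against sham, edgeR called Stat3 neither with AAV-null nor with AAV-CNTF (adjusted p = 0.524 and 0.0949). On log2(FPKM + 0.1) and log2(FPKM + 1) it was called as higher with AAV-CNTF (limma adjusted p = 0.0343 and 0.0333).

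Crush AAV-CNTF against sham AAV-null called 11 of the 37 as higher and 3 as lower by edgeR, where 17% and 14.3% of all genes were called in those directions. The median log2 fold change was 0.62 over the list and 0.00518 over all genes tested. The smallest p-values belonged to Socs3 (2.05 ± 0.17), Ptpn6 (1.91 ± 0.23), Ptpn1 (0.92 ± 0.14) and Jak3 (1.01 ± 0.19) among higher genes, and the lower ones were Gab1 (-0.74 ± 0.10), Ptpn11 (-0.54 ± 0.09) and Socs7 (-0.62 ± 0.12), as log2 fold change ± SE. The edgeR adjusted p of Socs3 was 2.56e-08. Ptpn11 lost its call on both FPKM scales, at -0.25 on log2(FPKM + 0.1) and -0.24 on log2(FPKM + 1) (limma adjusted p = 0.194 and 0.195).

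**Figure D5:**
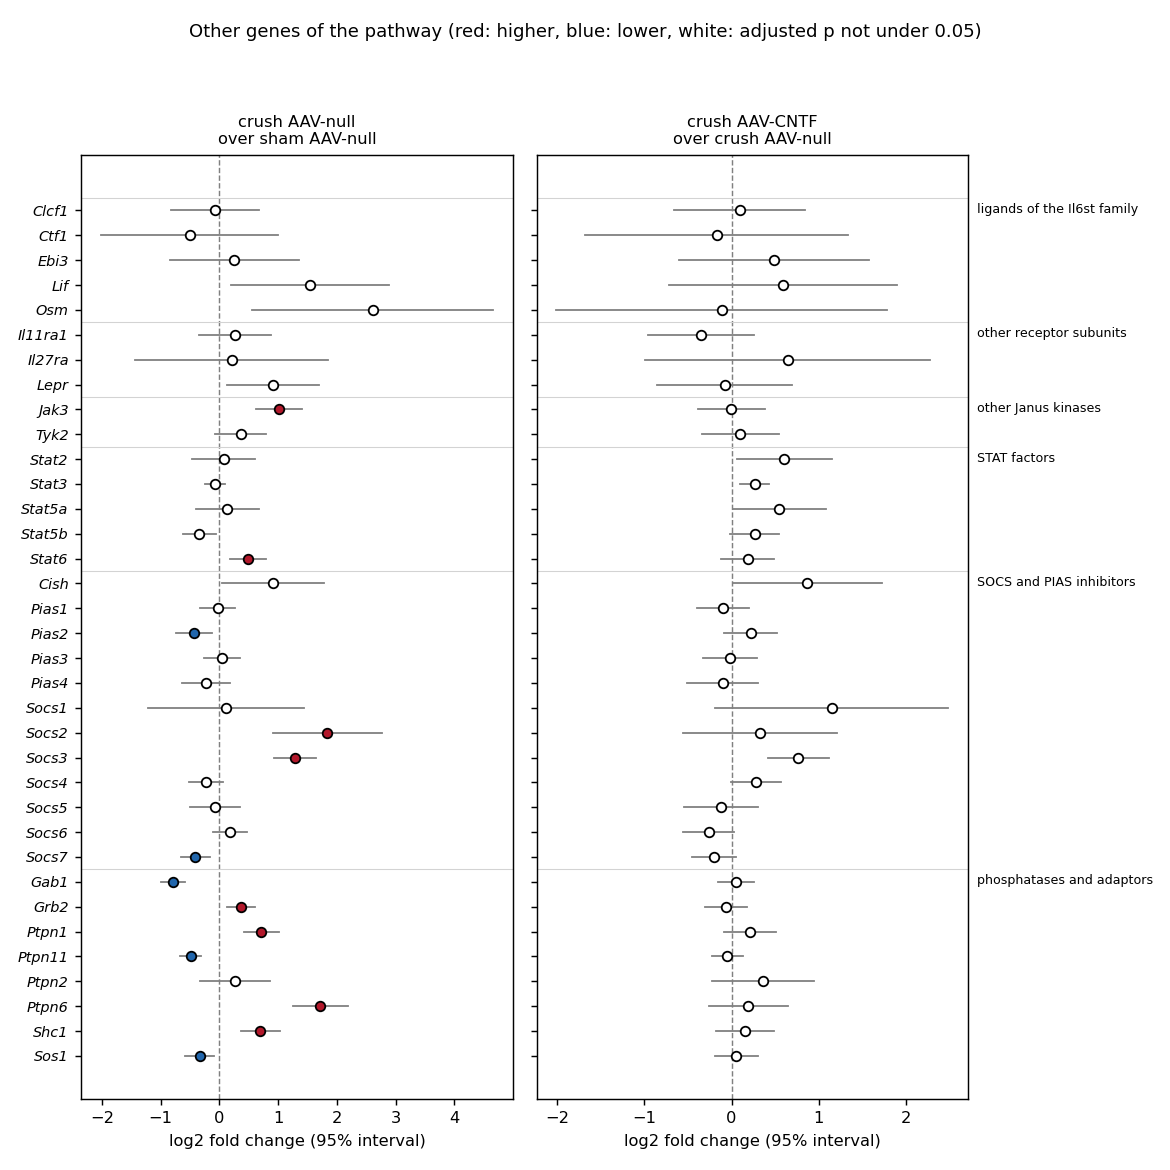
Log2 fold changes with 95% intervals by edgeR for 35 further genes of the pathway, grouped by role, for crush AAV-null over sham AAV-null and crush AAV-CNTF over crush AAV-null nerves. Filled points passed the adjusted p of 0.05 (red higher, blue lower), 13 in the first panel and none in the second, where Socs3 stands at 0.76.

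For each of the 8 genes the genes of most similar profile were taken by the root mean square difference of log2 CPM, each profile centred on its own mean over the 15 libraries, among 11683 genes with a mean of at least 5 CPM. Jak2 had the closest neighbours, Nfat5 at 0.0868 and Smarcc2 at 0.108, where the median gene stood at 0.422. Ubqln2 was the closest gene to both Il6st (0.109) and Lifr (0.140), followed by Eif1ax for Il6st (0.131) and by Ndrg2, one of the astrocyte markers, for Lifr (0.141). Cntfr lay nearest to Pim3 (0.181) and Mt3 (0.199), Osmr to Fgf2 (0.136) and Gas7 (0.191), Il6ra to Ccar1 (0.156) and Fzd1 (0.157), and Jak1 to Coa5 (0.102) and Etf1 (0.105). For Cntf, where the median gene stood at 1.18, the nearest were AC159477.1 at 0.509 and 4933413G19Rik at 0.546.

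In the authors' deposited table, every gene called in crush AAV-null against sham AAV-null has a fold change of at least 1.5, and 3 of the 8 genes are called there, Cntf, Cntfr and Lifr, all as lower. Of the 14210 genes with an adjusted p for this comparison in the authors' deposited table, 19.2% are called, 10.9% as higher and 8.25% as lower. The other 5 have adjusted p-values under 0.05 in the authors' deposited table and fold changes of 1.26 to 1.40. For crush AAV-CNTF against crush AAV-null the authors' deposited table calls none of the 8 and 0.478% of all genes (0.387% as higher and 0.0914% as lower), with the smallest adjusted p of the 8 for Lifr at 0.107. For crush AAV-CNTF against sham AAV-null the authors' deposited table calls Cntf and Cntfr as lower and Il6ra and Osmr as higher, against 23.1% of all genes, 10.2% as lower and 12.9% as higher.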

How the data were processed

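Bulk RNA of whole optic nerves was sequenced in 15 libraries, 5 per group. Per the submitters' processing notes the tools were Trimmomatic 0.32, STAR 2.5.3a, RSEM 1.2.31, R 3.2.3 and DESeq2 (no version), on mm10; no annotation is named. Per the labels' protocols, 2 library kits were in use, for 20 ng and 500 ng of RNA; which of them served a library is not stated. Per the file headers the authors deposited RSEM expected counts per gene, FPKM per gene, and for each pair of groups a log2 fold change and an adjusted p-value. The table is restricted to genes that reach an FPKM of 1 in 4 or more libraries within a group, so library totals leave out genes of low level.

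Expected counts (13.7% to 18.3% not whole) were rounded and fitted in R 4.3.3 with edgeR 4.0.16 (TMM, filterByExpr, quasi-likelihood test, 1 model over 15 libraries, 12 residual degrees of freedom); 14194 genes were tested, with Benjamini-Hochberg adjustment and a threshold of 0.05. The fit was tested on simulated data. Alternatives included DESeq2 1.42.0, limma 3.58.1 (voom with sample quality weights, and limma on log2(FPKM + 0.1) and log2(FPKM + 1)) and each library left out in turn. Positions were read from GENCODE M21, where 14215 of the 14237 identifiers were found once their version was dropped. Promoter sequences came from RefSeq (mm10), in which all 8 genes matched. The genes, lists, tests and alternatives were chosen with earlier results of these data known. Besides the 8 genes, the genes named are every measured ligand of the list, up to 4 per direction of smallest p among the list's called genes, the 2 genes of most similar profile per gene, and overlapping genes. Some genes that this rule selects are not reported here. Replicate numbers did not pair the libraries (correlation of deviations -0.053 to 0.11 over 15 same-number pairs, 1 over 0.1), and no libraries were duplicates (chi-square per degree of freedom 40.5 to 153 over 30 pairs). Depth leaves little counting error for these genes other than Cntf, so the spread between libraries sets the precision.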

Additional observations from a re-analysis of the deposited data

Results flagged for a closer look

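In sham AAV-null nerves, Cntfr in replicate 3 stood at 95.2 CPM, far below the other 4 libraries of its group at 127 to 133 CPM, and it was flagged because its gap to the nearest library took up most of the range of the group. It still lay above all crushed nerves. In the same group, Il6st in replicate 5 stood at 516 CPM, below the other 4 libraries at 579 to 603 CPM, and was flagged in the same way. These were 2 of 24 groups examined, where chance flags about 1 in 20.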

How the results depend on the processing

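Each comparison was recomputed under 22 alternatives, which gives 176 values of the 8 genes per comparison. For crush AAV-null against sham AAV-null, 159 values kept direction and call and 17 lost the call. The numbers were the same, 159 and 17, for crush AAV-CNTF against sham AAV-null. For crush AAV-CNTF against crush AAV-null, 173 kept direction and 3 reversed, all of Cntf and none called, at -0.1021 without crush AAV-CNTF replicate 6, -0.008 without crush AAV-null replicate 2 and -0.1895 without crush AAV-null replicate 5. With 1 library left out this value of Cntf ran from -0.1895 to 0.4037.

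With limma on log2(FPKM + 0.1) and on log2(FPKM + 1), 5 of the 8 genes were called in crush AAV-null against sham AAV-null, against 8 with edgeR. Over all genes 3167 and 3208 were called there, against 3912 with edgeR. On log2(FPKM + 0.1) 4 of the 8 were called in crush AAV-CNTF against sham AAV-null, against 7, and 3531 of all genes, against 4437. On log2(FPKM + 1), 9 genes of the pathway list were called in crush AAV-null against sham AAV-null, against 14. Leaving out 1 library at a time gave 6 to 8 of the 8 genes in crush AAV-null against sham AAV-null, 0 in crush AAV-CNTF against crush AAV-null and 5 to 7 in crush AAV-CNTF against sham AAV-null, and for the pathway list 11 to 17, 0 to 1 and 14 to 17. Over all genes these fits called 3483 to 3863, 1 to 41 and 3900 to 4343, in the same order. In crush AAV-CNTF against crush AAV-null, 1 gene of the pathway list, Socs3, was called by limma-voom, by DESeq2 and without crush AAV-null replicate 6. Over all genes that comparison called 8 with edgeR, 83 with DESeq2, 5 with limma-voom, 3 on FPKM, 1 when fitted on its 10 libraries, 2 with replicate 6 of crush AAV-null and replicate 4 of crush AAV-CNTF both left out, and 1 to 41 with 1 library left out. Those counts were 41 without crush AAV-CNTF replicate 6, 16 without replicate 3 and 2 without replicate 4 of that group, and 1, 3, 1, 2 and 4 without crush AAV-null replicates 2 to 6 in turn. The cause of these differences was not tested.

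With replicate number as a block, a number that does not pair the libraries, 3881, 16 and 4368 genes were called in crush AAV-null against sham AAV-null, crush AAV-CNTF against crush AAV-null and crush AAV-CNTF against sham AAV-null, against 3912, 8 and 4437 without the block. Under the block Il6st in crush AAV-CNTF against sham AAV-null had an adjusted p of 0.0675 and no other of the 8 genes changed its call. In crush AAV-null against sham AAV-null and in crush AAV-CNTF against sham AAV-null, the ratio of group means was higher in FPKM than in CPM for all 8 genes. In crush AAV-null against sham AAV-null it was 0.699 in FPKM and 0.617 in CPM for Lifr, 0.813 and 0.7096 for Il6st, 1.53 and 1.36 for Il6ra, and 0.817 and 0.723 for Jak2.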
